A study of Rattus norvegicus with 6 samples.

Results

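Insl3, Insl6, Rxfp1 and Rxfp2 are genes of the relaxin family of peptide hormones and receptors, and they were taken from the table of testis RNA by their symbols. Each symbol matched 1 gene, so the 4 genes are 4 of the 35291 in the table. The matching used symbols alone, while the choice of these genes was made with earlier results of the data known. Insulin-like 3 (Insl3) and insulin-like 6 (Insl6) are secreted ligands, and the relaxin family peptide receptors 1 and 2 (Rxfp1 and Rxfp2) are receptors of the cell surface.

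RNA-Seq was performed on whole testes of adult male Sprague-Dawley rats, an outbred strain, 3 diabetic and 3 non-diabetic. The diabetic rats were first fed a high-fat diet and then given 1 dose of streptozotocin (STZ), 35 mg/kg into the peritoneal cavity, and their testes were collected after 8 weeks. STZ is a toxin that enters pancreatic beta cells and destroys them. Non-diabetic rats received the citrate buffer without STZ. Whether they also ate the high-fat diet, and the age of the rats in weeks, are not given in the sources used here, so STZ and diet cannot be told apart in this comparison. The rats were different animals in the 2 groups, 1 library each, and no litter, cage or sequencing date is given.

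INSL3 is made by Leydig cells, the testosterone-producing cells between the seminiferous tubules, and it acts on RXFP2. In the fetus this pair guides the descent of the testis through the gubernaculum. In the adult, Rxfp2 is found on germ cells and Leydig cells, and circulating INSL3 is read as a measure of how many mature Leydig cells there are and how differentiated they are. INSL6 belongs to the same peptide family but is made by meiotic and postmeiotic germ cells, and its receptor is not established. RXFP1 is the receptor of relaxin itself. Both receptors carry leucine-rich repeats outside the cell and signal through G proteins to adenylyl cyclase.

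The 2 ligand genes are expressed in different cells of the testis. Their promoters are shown because 1 of them, Insl3, was past the criterion described below and the other was not. That criterion uses a p-value without adjustment, and Insl3 did not pass the correction for multiple tests. The 250 bases before the transcription start, taken from RefSeq (build GRCr8), are at chr16:18432939-18433188 on the plus strand for Insl3 and at chr1:236487066-236487315 on the minus strand for Insl6, each written 5′ to 3′ along its gene. Capitals mark matches, on either strand, to AGGTCA, the half-site that steroidogenic factor 1 and the NR4A and COUP-TF receptors bind, and to TATAA of the TATA box.
Insl3: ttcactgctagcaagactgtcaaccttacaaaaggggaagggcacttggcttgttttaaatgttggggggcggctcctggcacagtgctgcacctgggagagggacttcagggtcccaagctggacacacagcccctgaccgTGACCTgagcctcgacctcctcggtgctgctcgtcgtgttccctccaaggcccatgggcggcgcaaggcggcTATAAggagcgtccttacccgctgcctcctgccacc
Insl6: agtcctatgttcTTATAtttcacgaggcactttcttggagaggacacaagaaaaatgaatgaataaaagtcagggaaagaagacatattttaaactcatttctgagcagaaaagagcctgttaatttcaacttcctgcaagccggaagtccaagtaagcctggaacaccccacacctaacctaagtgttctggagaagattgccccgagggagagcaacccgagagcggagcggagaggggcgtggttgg
In Insl3 the half-site is on the opposite strand, 108 to 103 bases before the start, and TATAA is on the strand of the gene, 36 to 32 bases before the start. Insl6 held TATAA on the opposite strand, 238 to 234 bases before the start, and no AGGTCA. In Rxfp2, whose 250 bases are at chr12:10023099-10023348 on the minus strand, neither was found. TGACG, the half-site of the cAMP response element, was in none of these 3 windows. Of 27457 rat promoters of the same length, 13.7% held AGGTCA, 24.1% held TATAA and 19.0% held TGACG, and the motifs do not overlap each other. A match of letters describes the sequence and is not a site of binding.

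Values are FPKM, which the authors calculated from the fragments of a gene, its length and the library size. The table holds no read counts, so the depth in reads is unknown. Ratios shared by 32 to 60 genes under 1 FPKM in each pair of libraries gave relative depths of 0.966 to 1.092 in the diabetic and 0.893 to 1.020 in the non-diabetic rats, against a mean of 1. Germ cell markers were abundant and the 3 epididymal markers Lcn5, Crisp1 and Adam7 were at or below 0.115 FPKM in every library, which fits the tissue named in the labels.

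Because FPKM takes out gene length, the levels of the 4 genes can be set side by side. Insl6 had the highest level in each of the 6 testes, followed by Insl3, Rxfp2 and Rxfp1. The ranges of neighbouring genes in this order did not overlap, over all 6 testes. Insl6 was above at least 97.8% of all genes in the table in every testis, while the percentile of Insl3 was 78.2 to 81.5 in non-diabetic and 58.8 to 76.5 in diabetic rats. Rxfp2 was at percentiles 51.3 to 55.3 and Rxfp1 at 28.0 to 36.1.

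**Figure D1:**
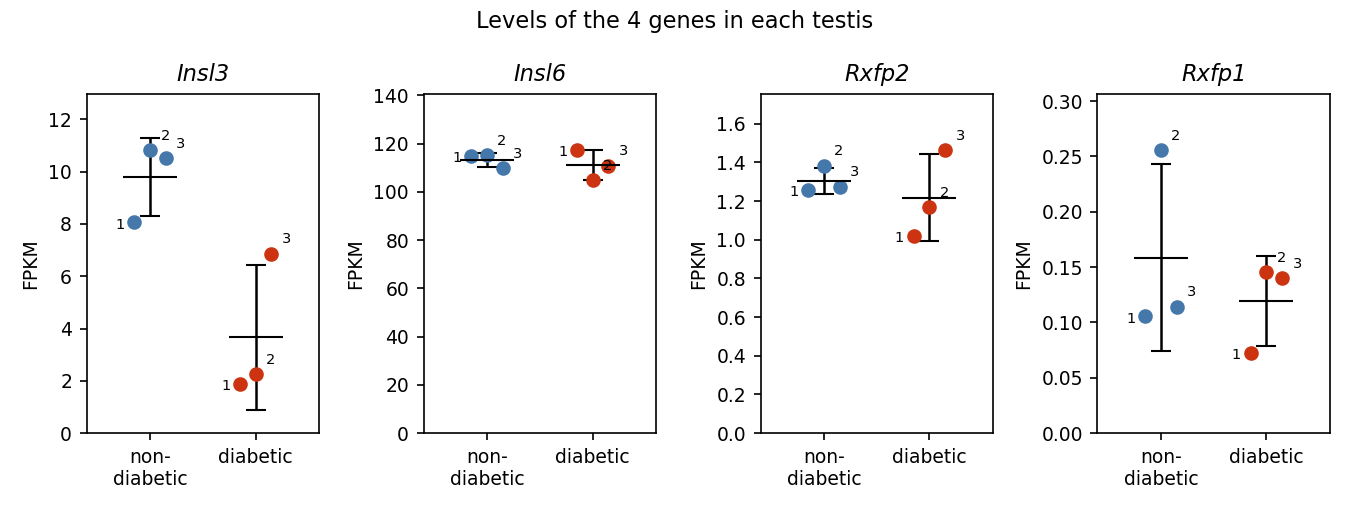
Level of Insl3, Insl6, Rxfp2 and Rxfp1 in FPKM (vertical axes, each from 0) in non-diabetic (blue) and diabetic (red) rats. Points are single testes with their replicate numbers, the long bar is the mean and the whiskers are 1 SD (n = 3). For Insl3 all 3 diabetic testes, between 1.89 and 6.86 FPKM, are below the lowest non-diabetic testis at 8.06 FPKM, whereas the groups overlap for the other 3 genes.

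Insl3 (ENSRNOG00000018757) was lower in the testes of all 3 diabetic rats than in any non-diabetic rat. It was at 8.06, 10.8 and 10.5 FPKM in non-diabetic rats 1 to 3 and at 1.89, 2.26 and 6.86 FPKM in diabetic rats 1 to 3. The groups did not overlap, but diabetic rat 3 was closer to the lowest non-diabetic rat than to the other diabetic rats. The means were 9.79 ± 1.51 FPKM (SD, n = 3) in non-diabetic and 3.67 ± 2.77 FPKM (SD, n = 3) in diabetic rats, a mean 62.5% lower. The coefficient of variation was 15.4% among the non-diabetic and 75.4% among the diabetic rats. In whole tissue, fewer Leydig cells and less Insl3 RNA in each of them cannot be told apart.

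The groups were compared with limma, a linear model fitted to all genes together, on log2(FPKM + 0.1). The log2 fold change is the diabetic minus the non-diabetic mean on that scale, and it understates the change of genes near 0. For Insl3 it was -1.62 with an SE of 0.44 and a 95% interval from -2.66 to -0.58, which is 3.07-fold lower. The unadjusted limma p-value was 0.00766 and the p-value adjusted by Benjamini-Hochberg over all 20338 genes tested was 0.484. An exact permutation test over the 6 rats (two-sided) gave p = 0.1, the smallest that 3 against 3 samples allow. Insl3 was thus past the criterion, a log2 fold change of 1 or more in either direction and p below 0.05 without adjustment. It did not pass the correction for multiple tests. The study screened transcripts by DESeq2 at these thresholds, whereas here they were applied to limma p-values of genes.

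How often other genes met these rules gives the scale. By the same criterion 172 of the 20338 genes were lower in diabetic rats (0.846%) and 81 were higher (0.398%). An unadjusted p-value below 0.05 was reached by 4.99% of genes in the lower and 2.47% in the higher direction, and 7 genes had one below 0.05 after adjustment (0.0344%). Groups that did not overlap, with the diabetic rats lower, were seen for 8.42% of genes. Of the 4 relaxin family genes, 3 had a mean of at least 0.5 FPKM and were tested with all others, and 1 of these 3 was past the criterion. The log2 fold change of 98 genes was below that of Insl3, among them 24 of the 12237 protein-coding genes, and 320 genes had a lower p-value. The median log2 fold change of all genes was -0.02.

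**Figure D2:**
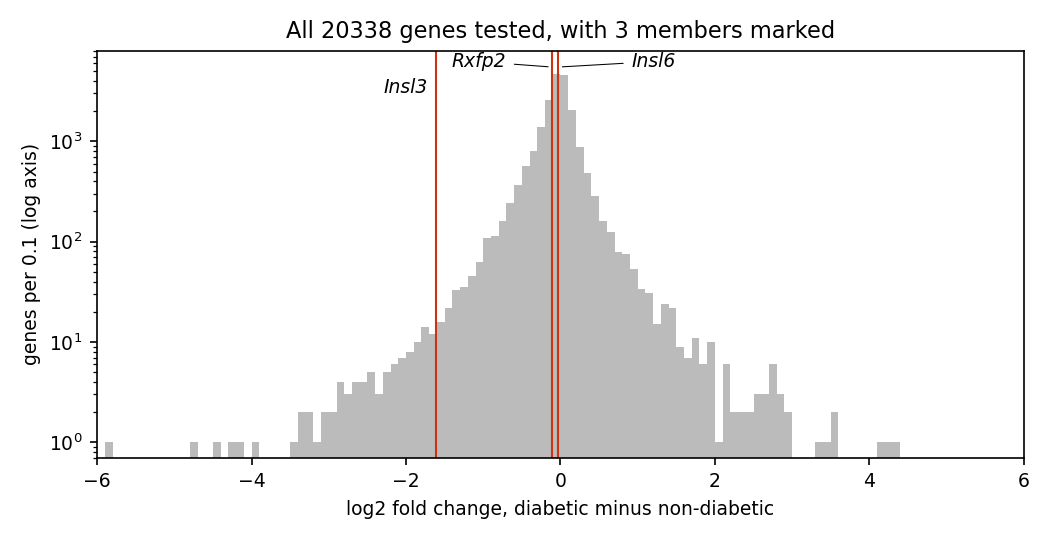
Number of genes (vertical log axis, per 0.1) by log2 fold change, diabetic minus non-diabetic, for the 20338 genes tested. Red lines mark Insl3 at -1.62, in the thin left tail with 98 genes below it, and Rxfp2 at -0.11 and Insl6 at -0.03, both in the peak of the distribution.

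Whether Insl3 passed the correction depended on diabetic rat 3. Without it the log2 fold change was -2.18, the unadjusted limma p-value 1.39e-05 and the adjusted p-value 0.047. Leaving out each of the other rats in turn gave log2 fold changes between -1.75 and -1.28, each past the criterion.

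Insl6 (ENSRNOG00000015868), the ligand of germ cells, had similar levels in both groups. It was at 115, 115 and 110 FPKM in non-diabetic rats 1 to 3 and at 117, 105 and 111 FPKM in diabetic rats 1 to 3. The highest and the lowest value were both in diabetic rats, and the groups overlapped. The means were 113 ± 2.93 and 111 ± 6.19 FPKM (SD, n = 3 each). On the log2 scale the difference was -0.03 with an SE of 0.06 (limma, adjusted p = 0.951), and its 95% interval, from -0.17 to 0.11, spans 0.888-fold to 1.08-fold. The exact permutation test gave p = 0.7.

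Rxfp2 (ENSRNOG00000000897), the receptor of INSL3, was at 1.26, 1.38 and 1.28 FPKM in non-diabetic rats and at 1.02, 1.17 and 1.46 FPKM in diabetic rats. Diabetic rats 1 and 2 were below the non-diabetic rats and diabetic rat 3 was above them. The means were 1.31 ± 0.067 and 1.22 ± 0.226 FPKM (SD, n = 3 each). On the log2 scale the difference was -0.11 with an SE of 0.20 (limma, adjusted p = 0.948). The 95% interval ran from -0.58 to 0.37, and smaller changes in either direction were inside it. The estimate for Insl3, -1.62, was outside it, but the interval of Insl3 reached up to -0.58. Whether the change in Rxfp2 differed from that in Insl3 was not tested. The exact permutation test gave p = 0.5.

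Rxfp1 (ENSRNOG00000024120), the relaxin receptor, was near the lower end of what the libraries measured. It was at 0.105, 0.256 and 0.114 FPKM in non-diabetic rats and at 0.0724, 0.145 and 0.140 FPKM in diabetic rats. Non-diabetic rat 2 was the highest, and the groups overlapped. The mean over all 6 rats was 0.139 FPKM, under the filter of 0.5, so the value came from a fit without the filter, in which the log2 fold change was -0.21 with an SE of 0.33 (limma, adjusted p = 0.920). The 95% interval from -0.99 to 0.57 is wide. At this level of expression, a fall or a rise within it could not be told apart from no difference.

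**Figure D3:**
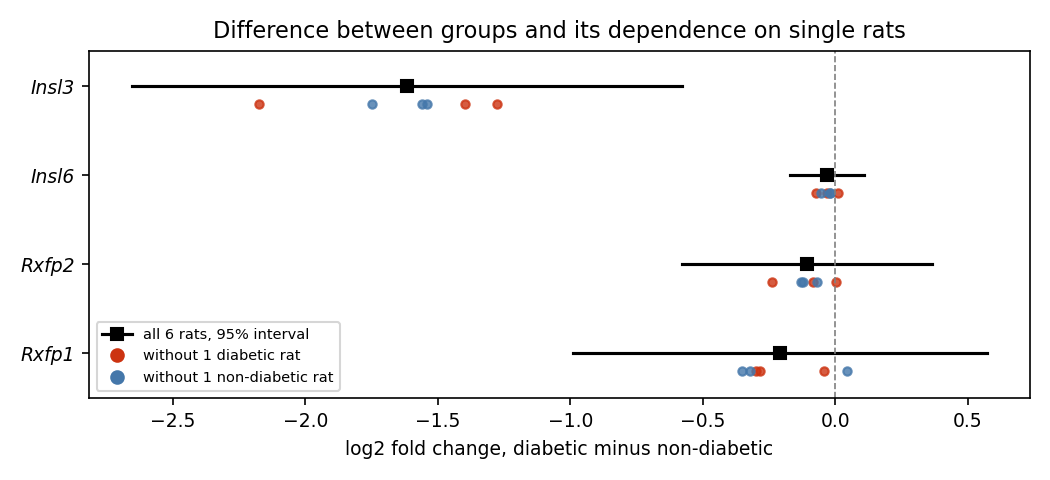
Log2 fold change, diabetic minus non-diabetic (horizontal axis), of the 4 genes. Squares and lines are the limma estimate from 6 rats and its 95% interval, and the dots below are the estimates with 1 diabetic (red) or 1 non-diabetic (blue) rat left out. The interval of Insl3, -2.66 to -0.58, lies below 0, and those of Insl6, Rxfp2 and Rxfp1 cross it.

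Within each testis, the ligand and its receptor can be set against each other. The ratio of Insl3 to Rxfp2 FPKM was 6.40, 7.82 and 8.23 in non-diabetic rats and 1.85, 1.94 and 4.68 in diabetic rats. The ratio of Insl6 to Insl3, the germ cell to the Leydig cell ligand, was 14.3, 10.6 and 10.5 in non-diabetic rats and 62.0, 46.4 and 16.2 in diabetic rats. Both ratios follow the level of Insl3, and in both diabetic rat 3 was the nearest to the non-diabetic rats. The ratio of Rxfp2 to Rxfp1 ranged from 5.41 to 12.0 in non-diabetic and from 8.04 to 14.1 in diabetic rats, and these ranges overlapped.

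Of the other family members, relaxin 1 (Rln1), the ligand of RXFP1, was listed at 0 in all 3 diabetic rats and at 0.0710, 0.101 and 0.0755 FPKM in non-diabetic rats. These levels are under the filter, and no fold against a group listed at 0 is given. Relaxin 3 (Rln3), known as a brain peptide and the ligand of RXFP3, was at 0.386, 0.429 and 0.704 FPKM in non-diabetic and 0.570, 0.998 and 0.985 FPKM in diabetic rats. The groups overlapped, and its log2 fold change was 0.65 with an SE of 0.35 (limma, adjusted p = 0.760). Rxfp3 was listed at 0 in all 6 rats, and Insl5 and Rxfp4 were not matched to a symbol. The only gene of the 5 that was tested, Rln3, was not past the criterion.

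Insl3 was next compared with other genes of the Leydig cell, because its RNA comes from that cell. Of 7 listed genes, 6 were in the table and all 6 were tested. All 6 were lower in diabetic rats at an unadjusted limma p-value below 0.05, against 4.99% of all genes tested. Of the 6, 4 were past the criterion, against 0.846% of all genes in the lower direction. For 1 the adjusted p-value was also below 0.05. The median of their log2 fold changes was -1.20, against -0.02 over all genes tested, with a range from -1.60 to -0.79. Without diabetic rat 2, 2 in place of 4 were past the criterion. The limma p-value was below 0.05 for 4 in place of 6 without diabetic rat 1 or 2 or non-diabetic rat 1 or 2. It was below 0.05 for 5 without non-diabetic rat 3, without the trend in eBayes or with the replicate block. Their summed level was 81.4 to 117 FPKM in non-diabetic and 28.2 to 58.4 FPKM in diabetic rats, and none of them was listed at 0 in any rat. Their part in the Insl3 result was not tested.

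Cyp17a1, the enzyme that turns progestins into androgens, was at 24.3, 36.1 and 26.3 FPKM in non-diabetic and 9.59, 8.84 and 9.65 FPKM in diabetic rats, a log2 fold change of -1.60 (limma, adjusted p = 0.0415). In fits that each omitted 1 rat, its log2 fold change was -1.71 to -1.43 and its adjusted p-value 0.0175 to 0.151. The adjusted call was lost in 4 of these 6 fits, those without diabetic rat 1, 2 or 3 or without non-diabetic rat 3. It was also lost without the filter (adjusted p = 0.0788), without the trend in eBayes (0.0909) and with the replicate block (0.186). Star, which carries cholesterol into mitochondria, was at 38.8, 41.5 and 24.5 FPKM in non-diabetic and 16.7, 7.70 and 22.8 FPKM in diabetic rats (-1.24, adjusted p = 0.551). Cyp11a1, which cleaves the cholesterol side chain, was at 25.7, 21.9 and 15.7 against 9.80, 5.71 and 13.8 FPKM (-1.16, adjusted p = 0.486). As for Insl3, the groups did not overlap for these 3 genes. Hsd17b3, which makes testosterone from androstenedione, had the log2 fold change -1.26 (adjusted p = 0.624) with overlapping groups. Lhcgr, the receptor of luteinizing hormone, was at 4.45, 5.03 and 4.68 against 2.32, 2.32 and 2.29 FPKM. Its groups did not overlap, and its log2 fold change, -0.999, was just short of the criterion (limma, adjusted p = 0.0559). Under other settings or with a rat left out it ran from -1.04 to -0.79, on both sides of the criterion. The adjusted p-value was 0.0104 among protein-coding genes only and 0.0425 without the trend. With the replicate block it was 0.304, and with a rat left out 0.118 to 0.243. Hsd11b1, which interconverts active and inactive glucocorticoids, had a log2 fold change of -0.79 (unadjusted p = 0.0377) and overlapping groups.

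Set against the mean of the non-diabetic rats, the diabetic rats differed from gene to gene in how far they stood apart from each other. Insl3 was at 19.3%, 23.1% and 70.1% of that mean in diabetic rats 1 to 3. Cyp17a1 was at 33.2%, 30.6% and 33.4%, and Lhcgr at 49.2%, 49.1% and 48.5%, with hardly any spread. Star was at 47.8%, 22.0% and 65.3%, Cyp11a1 at 46.5%, 27.1% and 65.5%, Hsd17b3 at 39.0%, 18.0% and 77.7%, and Hsd11b1 at 61.4%, 34.9% and 85.6%. In diabetic rat 1 Insl3 was below each of the 6 other genes. In diabetic rat 2 it was above Star and Hsd17b3 and below the other 4, and in diabetic rat 3 it was below Hsd17b3 and Hsd11b1 and above the other 4.

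**Figure D4:**
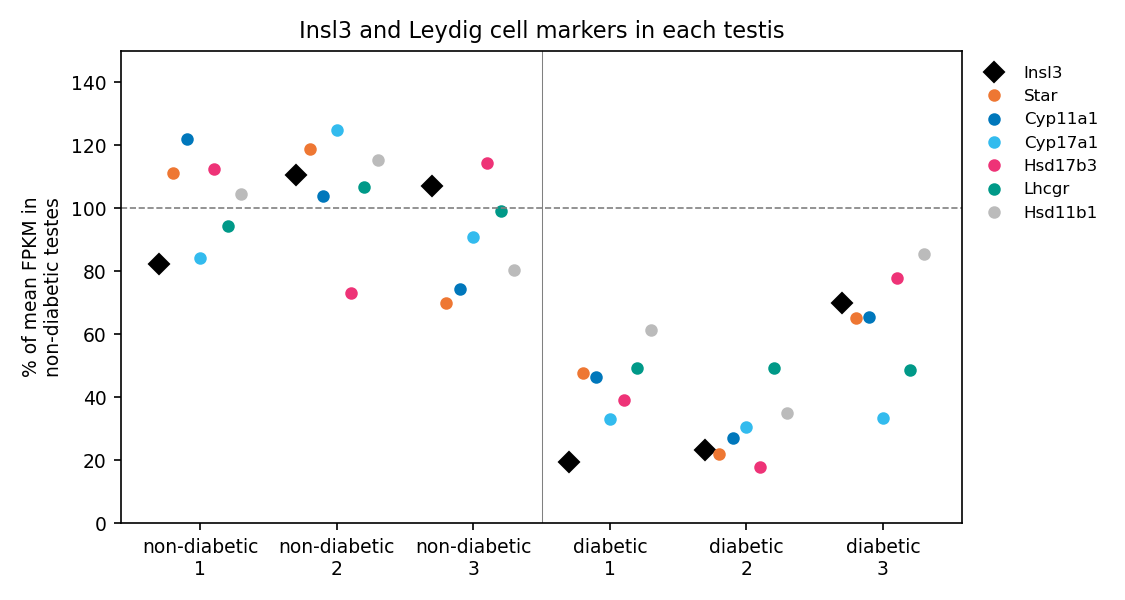
Level of Insl3 (black diamonds) and 6 other Leydig cell genes (coloured points) in each rat, as a percentage of the gene's mean in non-diabetic rats (vertical axis, dashed line at 100%). In diabetic rats 1 and 2 Insl3 is at 19.3% and 23.1%, and in diabetic rat 3 at 70.1%, while Cyp17a1 and Lhcgr stay within 30.6% to 33.4% and 48.5% to 49.2% in the 3 diabetic rats.

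Taking the mean log2 level of the 6 Leydig cell genes off that of Insl3 left -0.57, -0.18 and 0.06 in non-diabetic rats and -1.43, -0.56 and -0.02 in diabetic rats. The means were -0.23 ± 0.32 and -0.67 ± 0.72 (SD, n = 3 each), the ranges overlapped, and the difference of -0.44 gave p = 0.5 in the exact permutation test. A difference between Insl3 and the other Leydig cell genes was therefore not detected with 3 rats in each group, which does not show that they moved alike. The same measure for Insl6, against 12 spermatocyte and spermatid genes, was -0.27, -0.36 and -0.50 in non-diabetic and -0.21, -0.54 and -0.46 in diabetic rats. Its difference was -0.03 (exact permutation p = 0.9).

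Regulators of Insl3 came next, 6 genes of transcription factors and the gene of a cell-surface receptor, Lhcgr. All 7 were tested and none was past the criterion. Lhcgr, described above, was the only one that reached p below 0.05 without adjustment. The median log2 fold change of the 7 was -0.05. Nr2f2, which encodes COUP-TFII, was at 3.23, 2.91 and 3.13 FPKM in non-diabetic and 1.98, 2.48 and 2.86 FPKM in diabetic rats. The groups did not overlap and the log2 fold change was -0.34 with an SE of 0.16 (limma, adjusted p = 0.712). Klf6, a zinc finger factor, had a log2 fold change of 0.40 (unadjusted p = 0.219). Nr5a1, which encodes steroidogenic factor 1, is named after its values were seen. It was at 3.66, 3.50 and 2.80 FPKM in non-diabetic and 3.24, 3.87 and 2.76 FPKM in diabetic rats, with overlapping groups and a log2 fold change of -0.02 (limma, adjusted p = 0.995).

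The proteases that trim the family's prohormones showed no gene past the criterion among the 5 of 8 that were tested, and none with an unadjusted p-value below 0.05. Their median log2 fold change was -0.01. The convertases Pcsk7 and Furin, which had the lowest p-values among those tested, had log2 fold changes of -0.11 and -0.09 (limma, adjusted p = 0.918 and 0.933). Pcsk1, a convertase of neuroendocrine cells and under the filter, was at 0.191, 0.123 and 0.114 FPKM in non-diabetic and 0.0169, 0.0331 and 0.0208 FPKM in diabetic rats, without overlap.

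Downstream of the receptors, the list of G protein and adenylyl cyclase genes held 12 genes on 13 rows, since Gnas is on 2 rows. Of these, 9 rows were tested, none was past the criterion and 1, Adcy6, reached p below 0.05 without adjustment. The median log2 fold change was -0.02. Adcy6, an adenylyl cyclase, was at 0.770, 0.874 and 0.875 FPKM in non-diabetic and 0.509, 0.514 and 0.536 FPKM in diabetic rats. The groups did not overlap and the log2 fold change was -0.60 (limma, adjusted p = 0.665). For Gnai3, an inhibitory G protein subunit, it was -0.15 (unadjusted p = 0.0822).

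Markers of the other cells of the testis were counted in the same way, and none of these lists had a gene past the criterion. The median log2 fold change was 0.12 for 6 Sertoli cell genes, -0.17 for 4 peritubular myoid cell genes, -0.07 for 2 endothelial genes, -0.17 for 5 genes of spermatogonia, -0.01 for 6 of spermatocytes and -0.02 for 6 of spermatids. The macrophage genes, which mark cells that lie beside Leydig cells, had a median of -0.23 over 5 genes. Among them Csf1r, the receptor of colony stimulating factor 1, had a log2 fold change of -0.80 (limma, adjusted p = 0.336) and the lysosomal gene Cd68 one of -0.98 (adjusted p = 0.629), and these were the only 2 with an unadjusted p-value below 0.05. The summed level of the macrophage genes was 30.4 to 31.9 FPKM in non-diabetic and 25.6 to 30.8 FPKM in diabetic rats, and its part in the Insl3 result was not tested. Of the spermatogonial genes, Kit had a log2 fold change of -0.30 and Uchl1 one of 0.34 (limma, adjusted p = 0.635 and 0.485). The summed level of the spermatid genes was 7436 to 10110 FPKM in non-diabetic and 7940 to 9444 FPKM in diabetic rats, and these ranges overlapped.

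**Figure D5:**
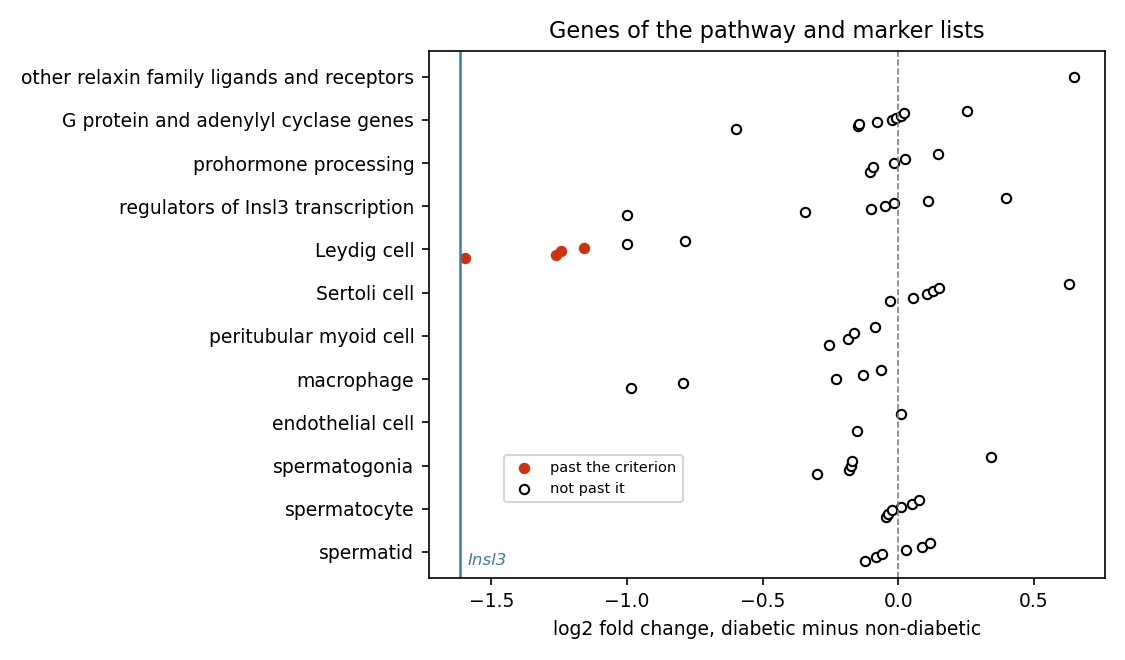
Log2 fold change, diabetic minus non-diabetic (horizontal axis), of each tested gene of the pathway and marker lists, 1 point per gene or row. Filled red points are past the criterion (1 or more on the log2 scale in either direction, p below 0.05 without adjustment), and the blue line marks Insl3 at -1.62. The 4 filled points are Leydig cell genes, and the lists of germ cells lie around 0.

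The neighbours of the 4 genes on the chromosome were examined because the strand of the reads is not stated, so that reads of overlapping genes could be counted for each other. In the order of RefSeq (GRCr8), Insl3 on chromosome 16 overlaps B3gnt3, a glycosyltransferase gene, and lies between Jak3 and Fcho1. B3gnt3 was between 0 and 0.118 FPKM and Jak3 between 0.0145 and 0.123 FPKM in the 6 rats, far below Insl3, and both had overlapping groups. These values come from the same assignment of reads to genes, so they cannot show whether reads of B3gnt3 were counted for Insl3. Fcho1, an endocytosis gene, had a log2 fold change of 0.16 (limma, adjusted p = 0.929). Insl6 on chromosome 1 lies between Jak2, a tyrosine kinase gene with a log2 fold change of -0.14, and Rln1. Rxfp2 on chromosome 12 lies between Fry, at 0.07, and B3glct, at 0.29 (unadjusted p = 0.0191). Rxfp1 on chromosome 2 lies next to Tmem144, at 0.37. The annotation places 1 noncoding RNA gene over Rxfp1 and 2 over Rxfp2, and their levels were not analysed here.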

How the data were processed

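The libraries of 3 diabetic and 3 non-diabetic rat testes were used, grouped by the condition in the labels. Their titles name circRNA, lncRNA and mRNA together. Per the labels, total RNA with an RNA integrity number above 7 was isolated with poly-T beads and sequenced as paired ends. The authors compared reads with rRNA using BWA, aligned them with STAR, assembled transcripts with StringTie and screened them with DESeq2. What was deposited is FPKM per gene, calculated by the authors. The genome build, tool versions and strand are not given in the sources used here. FPKM are not counts, and the depth in reads is unknown.

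FPKM were transformed to log2(FPKM + 0.1), and genes averaging 0.5 FPKM or more were compared by limma 3.58.1 (lmFit, eBayes with trend, R 4.3.3). Tests were two-sided and p-values adjusted by Benjamini-Hochberg. Genes under the filter were read from a fit without it. Exact permutation tests used scipy 1.17.1 in Python 3.11.15. The limma p-values rest on the variation between rats within the groups, which eBayes draws toward a trend over all genes. Those of the permutation tests rest on relabelling the rats. The limma fit was tested on simulated data with equal spread in both groups, which Insl3 did not have. Symbols of 17294 genes matched RefSeq (GRCr8), which gave gene types, neighbours and promoters. Its coordinates are not those of the authors' build.

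The members and the gene lists were chosen knowing earlier results of these data. Named are the 4 members, the other relaxin family genes, list genes past the criterion and up to 3 more with the lowest p-value per list, neighbours, and the 3 genes with the highest correlation to each tested member, of which 1 is not reported here. Marker lists in which no gene reached p below 0.05 are given by their medians, without these names. The alternatives changed the pseudocount (0.01 or 1), the filter (none, or 1 FPKM), the scaling (TPM or median-ratio) and eBayes (no trend, or robust), added the replicate block, kept protein-coding genes alone, or left out each rat.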

Additional observations from a re-analysis of the deposited data

How the results depend on the processing

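Insl3 kept its direction and stayed past the criterion in all 16 alternatives, with log2 fold changes from -2.18 to -1.28 and limma adjusted p-values from 0.047 to 0.860. With a rat left out it was -2.18 to -1.28, Insl6 -0.071 to 0.01, Rxfp2 -0.24 to 0.004 and Rxfp1 -0.35 to 0.045. The sign thus turned for Insl6 without diabetic rat 2 (0.01), for Rxfp2 without diabetic rat 1 (0.004) and for Rxfp1 without non-diabetic rat 2 (0.045), and no fit put these 3 genes past the criterion. Insl3 less the Leydig cell mean ranged from -0.77 to -0.06, and Insl6 less the germ cell mean from -0.13 to 0.04, turning without diabetic rat 2 (0.036) and without non-diabetic rat 1 (0.023). The 253 genes past the criterion became 91 with a pseudocount of 1 (88 shared), 621 without the filter (250 shared) and 85 among protein-coding genes only (81 shared), and 246 to 335 with a rat left out. The 7 genes below 0.05 after adjustment became 36 among protein-coding genes only, 3 without the filter, 12 without the trend, 4 with the replicate block and 0 to 11 with a rat left out (0 in limma without non-diabetic rat 3, where 1504 genes reached p below 0.05 without adjustment). Same-numbered rats were not the same animal. Their deviations correlated by 0.106, 0.015 and 0.098, and those of differently numbered rats by -0.126 to 0.032. Diabetic rats 1 and 3 correlated best with the non-diabetic rat of the same number, and diabetic rat 2 with non-diabetic rat 3. What the numbers stand for is not given, and whether they mark a shared step was not tested. With the replicate block 284 genes passed the criterion, the values of the 4 genes were -1.62, -0.03, -0.21 and -0.11 for Insl3, Insl6, Rxfp1 and Rxfp2, and no call on them changed. Rxfp1 was already read from the fit without a filter, so changing the filter gives it no further value. With 3 rats a group and unknown read depth, small differences, and any in Rxfp1, were not resolved.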

Other observations

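The genes whose log2 level followed each member most closely over the 6 rats were sought among 14987 genes with a symbol and a mean of at least 1 FPKM. These correlations are descriptions over 6 libraries that share 2 groups. For Insl3 they included Pkia, an inhibitor of protein kinase A (Pearson r = 0.998), and Prdm9, a histone methyltransferase of meiosis (0.988), and 103 genes were above 0.95. Pkia was at 1.42, 1.73 and 1.61 FPKM in non-diabetic and 0.671, 0.719 and 1.28 FPKM in diabetic rats, with diabetic rat 3 nearest to the non-diabetic rats as for Insl3. The 6 Leydig cell genes had r with Insl3 from 0.813 (Lhcgr, rank 843 of 14987) to 0.864 (Hsd17b3, rank 508). Pkia and Prdm9 were picked for their high r, so their higher values follow from that choice. For Insl6 the closest genes were LOC108348047, Bcl9l (both 0.993) and Rasef (0.985), with 45 genes above 0.95. For Rxfp2 they were Lrba (0.994), Rpl35 (0.992) and Gpr65 (0.990), with 43 genes.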
